A study of Homo sapiens with 6 samples.

Results

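GPC3, DLK1, LIN28B, IGF2BP1, IGF2BP2, IGF2BP3, EPCAM, SPINK1, PEG10 and HMGA2 are oncofetal genes of the liver, switched on in the fetal organ, largely quiet in adult hepatocytes and often active again in liver cancer. All 10 were chosen by name, and their transcripts were found by matching transcript identifiers to the gene symbols of GENCODE 29. They are 10 of 33791 genes with a matched transcript and 10 of the 12302 genes that were tested. The treated group was 3 libraries of HepG2 given 20 µM atractylon, a sesquiterpenoid of Atractylodes rhizomes, and the control was 3 libraries of HepG2 given no treatment. HepG2 is a single human liver cancer line that keeps many hepatocyte and fetal liver transcripts. No duration of treatment and no vehicle are given in the labels, and they do not say whether replicates came from different cultures. The p-values therefore reflect the spread between these 6 libraries alone, part of which may be technical. The series asked how atractylon bears on migration and invasion by such cells, with long non-coding RNAs as its main interest.

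The 10 genes work at several steps. GPC3, DLK1 and EPCAM are cell surface proteins and SPINK1 is secreted, and several of them serve as tissue or serum markers of liver tumours. LIN28B and the IGF2BP proteins bind RNA: LIN28B blocks the maturation of let-7 microRNAs, let-7 in turn represses mRNAs such as HMGA2, and the IGF2BP proteins protect bound mRNAs, including m6A-modified ones, from decay. HMGA2 is an architectural chromatin protein, and PEG10 is an imprinted gene derived from a retrotransposon.

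None of the 10 genes differed between treated and untreated cells beyond the spread between libraries. In edgeR's quasi-likelihood fit, 0 of 10 passed a Benjamini-Hochberg adjusted p of 0.05, where 0% of all 12302 genes passed, and the adjusted p was 0.9999 for each. At an unadjusted p under 0.05 the count was also 0 of 10, against 1.59% of all genes (196). In CPM, the counts scaled to library size, 0 of the 10 had groups that did not overlap, against 5.72% of all genes. DESeq2 and limma on log2 FPKM called 0 genes as well, with 102 and 401 genes at an unadjusted p under 0.05, none of them among the 10. The log2 fold change, atractylon over control, was above 0 in 4 of the 10 and in 53.3% of all genes. Its median was -0.011 over the 10 and 0.0115 over all genes, and the median absolute log2 fold change was 0.0523 over the 10 and 0.103 over all genes.

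In the fit on all 6 libraries, most of the 10 genes were measured closely enough to bound the difference between these libraries. The bounds hold for that fit alone, and some values shifted with 1 library left out, as given below. The 95% confidence interval of the fold change stayed inside a 1.5-fold increase or decrease for 8 of the 10 and for 54.7% of all genes. It lay within 2-fold for 9 of the 10 and for 81.3% of all genes, and SPINK1 was the exception. LIN28B lay between these bounds. Because the RNA came from whole cultures, fewer cells expressing a gene and less RNA per cell cannot be told apart.

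**Figure D1:**
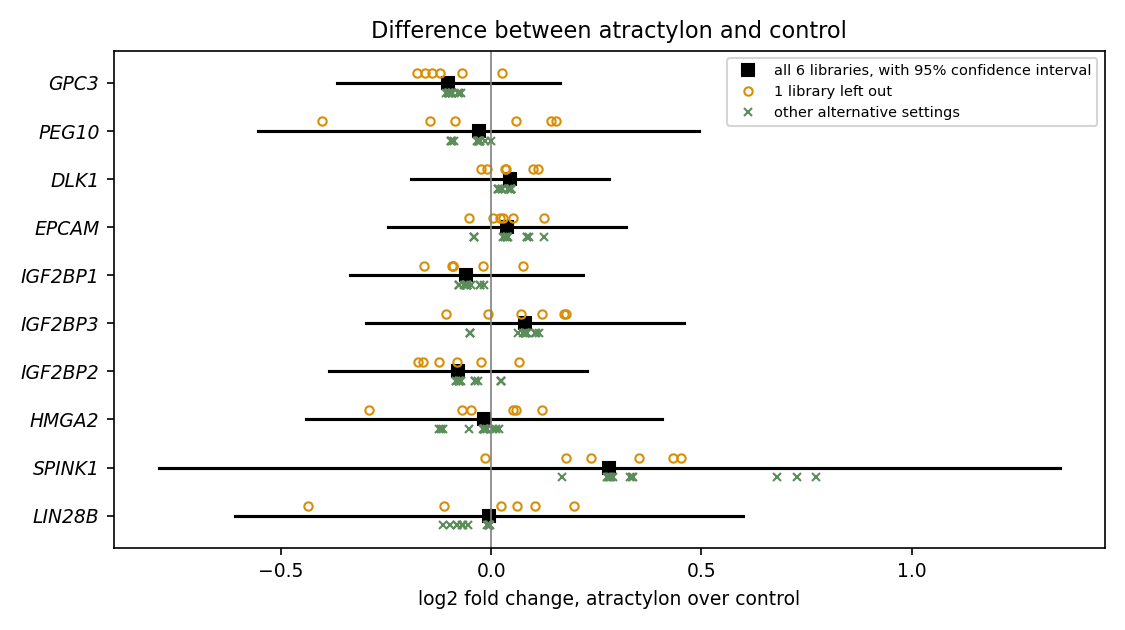
Log2 fold change, atractylon over control, of each gene (horizontal axis), with genes from highest to lowest mean FPKM down the page. Squares are the fit on all 6 libraries with its 95% confidence interval, open circles are fits with 1 library left out, and crosses are other settings. Every interval spans 0, and that of SPINK1, from -0.79 to 1.35, is the widest of the 10.

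Library totals ranged from 5859575 to 8832092 expected counts, and no pair of replicates matched within sampling noise (chi-square over degrees of freedom of 3.50 to 20.2). Libraries also differed by base composition. The Spearman correlation across all tested genes between a gene's GC content and its deviation from its mean was -0.612, 0.614 and 0.408 in the atractylon libraries, in replicate order, against -0.434, 0.183 and 0.0194 in the control libraries. Hepatocyte markers were present throughout: 10 of 10 were tested and they summed to between 22264 and 27632 CPM in atractylon libraries and between 22945 and 24403 CPM in control libraries. Markers of blood or immune cells summed to between 793 and 912 CPM in atractylon libraries and between 760 and 941 CPM in control libraries, nearly all of it LYZ, and 4 of 7 were tested. Bile duct markers, 4 of 7 tested (KRT19, SLC4A2, SOX9 and KRT7), summed to between 1065 and 1307 CPM in atractylon libraries and between 1133 and 1231 CPM in control libraries. Fibroblast or stellate markers, 2 of 7 tested (ACTA2 and PDGFRB), summed to between 54.5 and 84.3 CPM in atractylon libraries and between 75.3 and 84.5 CPM in control libraries. Endothelial markers, 3 of 6 tested (VWF, PECAM1 and LYVE1), summed to between 13.5 and 15.4 CPM in atractylon libraries and between 11.8 and 16.7 CPM in control libraries. Some of the other markers were listed at 0 in all 6 libraries. They were COL1A2, COL3A1, DCN and LUM (fibroblasts), KDR and STAB2 (endothelium), CFTR and AQP1 (bile ducts) and HBB (red cells). COL1A1, CDH5, PTPRC and CD3E were too low to be tested but were not at 0 in every library.

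In units that allow for transcript length, the genes spanned about 2 orders of magnitude. FPKM, the number of reads scaled to transcript length and library size, was summed over the transcripts of each gene and averaged over the 6 libraries. GPC3 stood first with a mean level of 475 FPKM, which was rank 253 among the 12302 tested genes. PEG10 followed with 195 FPKM and DLK1 with 156 FPKM, and these neighbours overlapped between libraries. EPCAM at 75.8 FPKM and IGF2BP1 at 69.9 FPKM also overlapped, as did IGF2BP3 at 27.7 FPKM and IGF2BP2 at 26.7 FPKM. HMGA2 came next with 12.7 FPKM. SPINK1 with 5.92 FPKM and LIN28B with 4.02 FPKM were last and overlapped, and the range of SPINK1 reached that of HMGA2 through atractylon replicate 1. The other neighbours were separated in all 6 libraries: GPC3 from PEG10, DLK1 from EPCAM, IGF2BP1 from IGF2BP3 and IGF2BP2 from HMGA2.

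**Figure D2:**
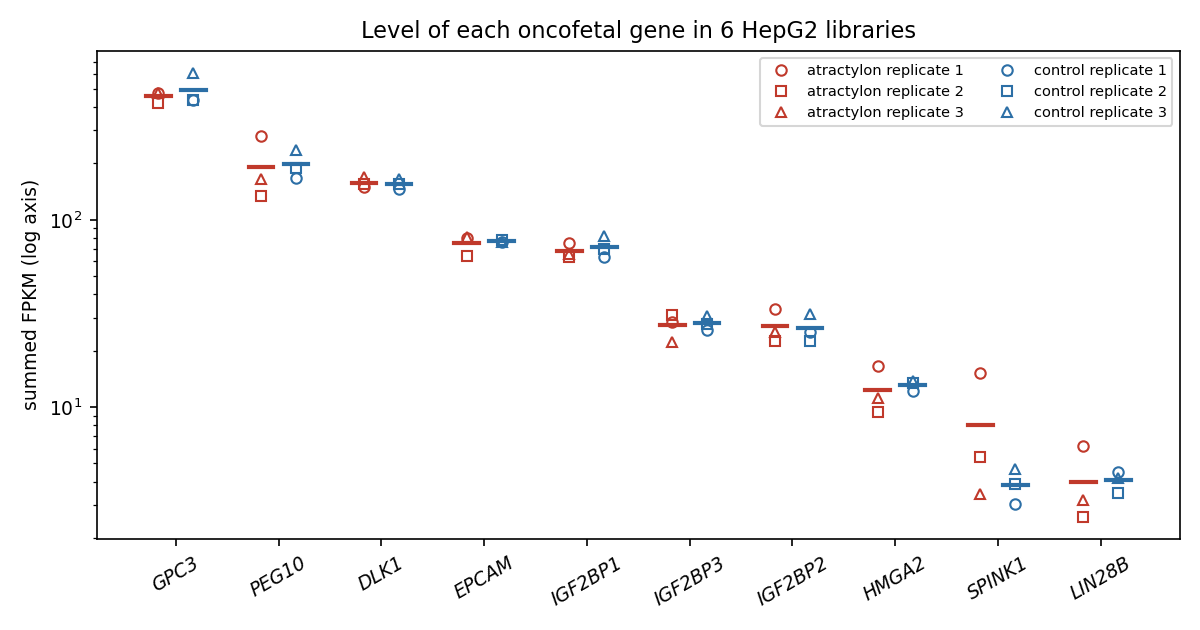
Summed FPKM of each gene (vertical log axis) in the 3 atractylon libraries (red, left) and the 3 control libraries (blue, right), with horizontal bars at the group means. GPC3 lies between 419 and 608 FPKM and LIN28B between 2.60 and 6.19 FPKM, and the groups overlap for all 10 genes.

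That order depends on which transcripts are summed, because a short transcript turns few reads into many FPKM. With protein-coding transcripts alone, PEG10 had 79.0 FPKM, only 40.5% of its summed value, and ranked after DLK1. EPCAM kept 31.8% of its sum (24.1 FPKM) and IGF2BP3 kept 28.7% (7.94 FPKM), which placed IGF2BP3 below both IGF2BP2 and HMGA2. SPINK1 kept 58.4% (3.46 FPKM) and ranked last, after LIN28B. GPC3, DLK1 and LIN28B kept all of theirs.

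GPC3, a glypican anchored to the cell surface and a widely used marker of hepatocellular carcinoma, gave the largest counts. It had 1135.5, 1015.1 and 1088.1 CPM in the atractylon libraries, against 1066.9, 1053.3 and 1354.7 CPM in the control libraries. Control replicate 3 was the highest and the other 5 libraries lay close together, so the groups overlapped. The log2 fold change was -0.10 ± 0.12 (SE, 3 libraries per group), with an interval from -0.37 to 0.16 (edgeR adjusted p = 0.9999). GPC3 had the smallest unadjusted p of the 10, 0.416. Without control replicate 3 the log2 fold change of GPC3 was 0.03.

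DLK1, a surface protein with EGF-like repeats that marks hepatoblasts and comes from an imprinted gene, varied least, with a highest library 1.21 times the lowest. It had 205.5, 223.4 and 239.9 CPM in the atractylon libraries, against 198.4, 214.3 and 234.8 CPM in the control libraries. In order of level, control and treated libraries alternated. Its log2 fold change of 0.05 ± 0.11 (SE) had the smallest standard error of the 10, with an interval from -0.19 to 0.28.

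EPCAM, an epithelial adhesion molecule found on hepatic progenitors, varied more in treated cells. It had 75.3, 57.6 and 68.7 CPM in the atractylon libraries, against 64.7, 67.7 and 64.2 CPM in the control libraries. The controls fell inside the range of the treated libraries. The coefficient of variation was 13.3% in the atractylon libraries and 2.91% in the controls (n = 3 each, not tested), and the log2 fold change was 0.04 ± 0.13 (SE).

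SPINK1, a secreted Kazal-type trypsin inhibitor, was barely detected. It had 7, 11 and 7 expected counts in the atractylon libraries, against 5, 8.03 and 7 in the control libraries, so counting error alone is large. These correspond to 1.22 ± 0.40 CPM with atractylon and 1.00 ± 0.18 CPM without (SD, n = 3 each). The edgeR log2 fold change was 0.28 ± 0.49 (SE), with an interval from -0.79 to 1.35. On the FPKM scale the gap looks wider, 7.98 ± 6.26 FPKM with atractylon and 3.85 ± 0.80 FPKM without (SD, n = 3 each), and the log2(FPKM + 0.5) difference was 0.73 by limma (adjusted p = 0.9999). In atractylon replicate 1, 12.8 of the 15.1 FPKM came from 1.73 expected counts on SPINK1-202, a retained-intron transcript of 244 bases. A difference inside the edgeR interval was not detectable at this depth.

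LIN28B, the RNA-binding protein that blocks let-7 maturation, had the largest spread between libraries of the 10. It had 34.7, 15.5 and 18.6 CPM in the atractylon libraries, against 25.3, 20.1 and 24.0 CPM in the control libraries. Atractylon replicate 1 was the highest of all 6 and replicates 2 and 3 were the lowest, so the controls lay inside the treated range. The mean was 22.95 ± 10.3 CPM with atractylon and 23.1 ± 2.75 CPM without (SD, n = 3 each), and the log2 fold change was -0.0054 ± 0.27 (SE), with an interval from -0.61 to 0.60. Its paralogue LIN28A was listed at 0 in all 6 libraries.

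IGF2BP1, which binds and stabilises many mRNAs in fetal tissue, was the most abundant of its family. It had 382.3, 339.4 and 374.0 CPM in the atractylon libraries, against 324.2, 368.9 and 447.8 CPM in the control libraries. The treated libraries lay within the range of the controls, which held both the lowest and the highest value. Its log2 fold change was -0.06 ± 0.13 (SE), and without control replicate 3 it was 0.08.

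IGF2BP2, the family member that adult tissues also express, had 96.9, 79.3 and 85.8 CPM in the atractylon libraries, against 86.2, 80.8 and 109.3 CPM in the control libraries. Control replicate 3 was again the highest and atractylon replicate 2 the lowest. Its log2 fold change was -0.08 ± 0.14 (SE).

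IGF2BP3 had 55.9, 41.6 and 37.6 CPM in the atractylon libraries, against 42.1, 38.0 and 47.8 CPM in the control libraries. The treated libraries held both extremes, with atractylon replicate 1 the highest. Its log2 fold change was 0.08 ± 0.17 (SE). Signs this close to 0 also depended on the unit: on the log2(FPKM + 0.5) scale IGF2BP2 was at 0.02, IGF2BP3 at -0.05 and EPCAM at -0.04.

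HMGA2, an AT-hook protein that bends DNA and a classical let-7 target, had 71.7, 41.6 and 46.8 CPM in the atractylon libraries, against 51.6, 51.1 and 59.4 CPM in the control libraries. The order of libraries was that of LIN28B at its ends: atractylon replicate 1 was the highest, and replicates 2 and 3 were below every control. Its log2 fold change was -0.017 ± 0.19 (SE), with a coefficient of variation of 30.1% in the atractylon libraries and 8.58% in the controls.

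PEG10, whose protein resembles a retroviral Gag-Pol and which is expressed from the paternal allele, had 699.1, 338.2 and 406.3 CPM in the atractylon libraries, against 409.8, 462.7 and 601.4 CPM in the control libraries. Atractylon replicate 1 was the highest and the other treated libraries were the lowest of all 6, as for LIN28B and HMGA2. The log2 fold change was -0.03 ± 0.24 (SE), with an interval from -0.55 to 0.49. Atractylon replicate 1 was 1.88 times the mean of the other treated libraries for PEG10, 2.03 times for LIN28B and 1.62 times for HMGA2.

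PEG10 makes its longer protein by a programmed frameshift, in which the ribosome slips back on a GGGAAAC heptamer, so the stretch around that heptamer is shown. It was found in PEG10-202, the transcript that held most of the gene's reads, at chr7:94664496-94664531 on the plus strand of GRCh38, inside the annotated coding region; capitals mark the heptamer.
PEG10 slippery site: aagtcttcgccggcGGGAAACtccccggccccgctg
Counts per transcript give no measure of frameshifting, so the 2 protein forms were not analysed here.

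LIN28B, PEG10 and HMGA2 shared a single high library. Atractylon replicate 1 was the highest of 6 for 5 of the 10 genes (LIN28B, IGF2BP3, EPCAM, PEG10 and HMGA2) and for 25.0% of all tested genes. Atractylon replicate 2 was the lowest for 6 of the 10 and for 23.7% of all genes, and control replicate 3 was the highest for 3 of the 10 (GPC3, IGF2BP1 and IGF2BP2) and for 14.7%. The 5 genes highest in atractylon replicate 1 were also the 5 of lowest GC content, from 38.1% in LIN28B to 46.4% in PEG10, where the median tested gene had 50.1%. Genes of low GC content read high in atractylon replicate 1 (correlation of -0.612 with GC content) and in control replicate 1 (-0.434). In control replicate 1 these 5 genes deviated from their means by 0.18 (LIN28B), -0.04 (IGF2BP3), -0.03 (EPCAM), -0.04 (HMGA2) and -0.20 (PEG10) in log2 CPM. The libraries also differed by transcript length. Its correlation with the deviation was 0.406, -0.336 and -0.194 in the atractylon libraries, against -0.0923, -0.201 and 0.319 in the control libraries. Of the 10 genes, 7 were longer than the median tested gene.

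Removing a smooth trend on GC content narrowed this spread unequally. The log2 CPM of LIN28B in atractylon replicate 1 stood 0.63 above its mean as counted, 0.19 with the GC trend removed and 0.06 with the length trend removed too. Its highest library was 2.22 times its lowest as counted and 1.15 times with both trends removed. For HMGA2 the same deviation was 0.44, 0.29 and 0.20, and for IGF2BP3 it was 0.36, 0.04 and 0.0023. PEG10 kept more of it, at 0.57, 0.46 and 0.34, and its highest library remained 1.54 times its lowest with both trends removed, against 2.07 times as counted. GPC3, of middling GC content, stayed highest in control replicate 3 on all 3 scales, at 0.28, 0.23 and 0.24 above its mean. IGF2BP2 did so too, at 0.29, 0.23 and 0.19. IGF2BP1 fell from 0.27 to 0.22 to 0.08 there, and with both trends removed its highest library was atractylon replicate 3. The log2 fold changes stayed between -0.08 and 0.34 with the GC trend removed, and HMGA2 changed sign to 0.019. What produced the GC and length trends was not tested.

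**Figure D3:**
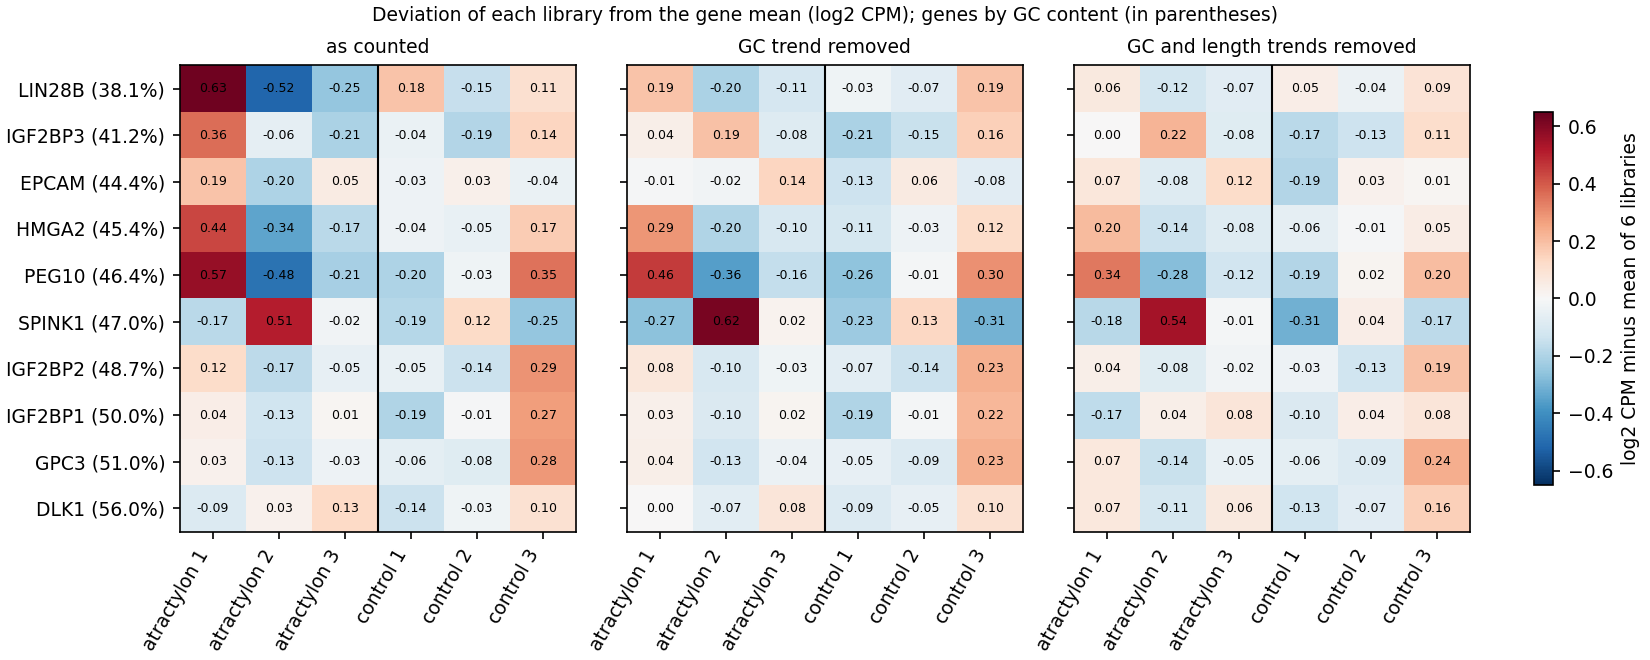
Deviation of each library (columns, atractylon left of the black line and control right of it) from the mean of the 6 libraries in log2 CPM, as counted and with GC and length trends removed. Genes run from low to high GC content down the page, and LIN28B in atractylon replicate 1 goes from 0.63 to 0.19 to 0.06 across the panels.

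LIN28B, PEG10 and HMGA2 shifted when that library was left out. Without atractylon replicate 1, the log2 fold change was -0.44 ± 0.18 (SE) for LIN28B (edgeR adjusted p = 0.427), -0.40 ± 0.14 for PEG10 (edgeR adjusted p = 0.405) and -0.29 ± 0.13 for HMGA2 (edgeR adjusted p = 0.455). These 3 had an unadjusted p under 0.05 in that fit, as did 10.7% of all genes (1319), and 0 of the 10 genes passed the adjusted threshold. With atractylon replicate 2 left out instead, the same genes had log2 fold changes of 0.20, 0.15 and 0.12.

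Over the 6 libraries, some of the genes followed each other closely and others ran opposite. As a description, the highest values of Pearson's r of log2 CPM were 0.972 between PEG10 and HMGA2, 0.960 between GPC3 and IGF2BP2, and 0.949 between LIN28B and HMGA2 (n = 6 libraries, which share the GC trends above). The lowest was -0.790, between LIN28B and SPINK1, and r was -0.544 between DLK1 and LIN28B. GPC3 had both the highest FPKM and the smallest p of the 10. The tested genes most like it, among 6474 of at least 10 FPKM, were TXNDC11 (r = 0.980), GLG1 (r = 0.979) and FAM168B (r = 0.978). GLG1 had 163.9, 144.0 and 159.4 CPM in the atractylon libraries, against 151.0, 160.2 and 214.9 CPM in the control libraries, with control replicate 3 the highest as in GPC3. For PEG10, chosen for this after its values were seen, the likest were KAT6A, KLB (r = 0.996 each) and DLC1 (r = 0.995).

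The transcripts of the 10 genes were also compared one by one. GENCODE 29 lists 77 transcripts for them, of which 67 were in the table, 29 passed the filter and 14 were at 0 in all 6 libraries. By edgeR with Benjamini-Hochberg adjustment over 39882 transcripts, 0 of the 29 passed, where 0% of all transcripts passed. At an unadjusted p under 0.05 the count was 0 of 29, against 2.32% of all transcripts (927), and limma called 0 transcripts with 1888 at that level. Groups that did not overlap in CPM numbered 0 of 29, against 8.49% of all transcripts. The smallest p was 0.211, for IGF2BP2-201, which had 8.21, 5.71 and 5.01 CPM in the atractylon libraries, against 5.08, 10.6 and 12.4 CPM in the control libraries (log2 fold change -0.58 ± 0.42, SE).

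One protein-coding transcript held most of the reads in most genes. GPC3-201 took 92.3% of the expected counts of GPC3, DLK1-202 92.5% of DLK1, IGF2BP1-201 90.6% of IGF2BP1, IGF2BP2-202 88.9% of IGF2BP2, HMGA2-204 94.2% of HMGA2 and SPINK1-201 95.5% of SPINK1, each as a mean over 6 libraries. The second transcripts were smaller: GPC3-202 with 5.21%, DLK1-201 with 5.69%, IGF2BP1-202 with 9.22% and IGF2BP2-201 with 8.92%. LIN28B-201 was the only LIN28B transcript in the table. PEG10 was split between PEG10-202 with 71.8%, PEG10-203 with 15.1% and PEG10-204, a short non-coding transcript, with 10.6%. The share of PEG10-202 hardly moved, at 71.1% ± 0.47 with atractylon and 72.4% ± 1.65 without (SD, n = 3 each), although the gene's highest library was 2.07 times its lowest.

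EPCAM and IGF2BP3 carried sizeable shares of intron-retaining transcripts. EPCAM-206, annotated as a retained intron, held 39.7% ± 5.91 of EPCAM counts with atractylon and 43.0% ± 0.96 without (SD, n = 3 each), a gap within the spread of the treated libraries. It had 25.0, 23.8 and 30.7 CPM in the atractylon libraries, against 27.3, 28.9 and 28.3 CPM in the control libraries. The coding EPCAM-201 held 58.0% over the 6 libraries. IGF2BP3-201, the coding transcript, held 77.9% ± 9.36 with atractylon and 78.5% ± 7.81 without. IGF2BP3-212, a retained-intron transcript, held 8.43% over the 6 libraries. IGF2BP3-202, a nonsense-mediated decay transcript, was counted in some libraries only, with 0, 28.1 and 22.6 expected counts in the atractylon libraries, against 0, 26.8 and 0 in the control libraries. GPC3-203, a short coding transcript, also jumped between libraries, with 12.5, 24.3 and 43.7 CPM in the atractylon libraries, against 6.05, 13.9 and 57.3 CPM in the control libraries. These transcripts share exons with longer ones, so the division of reads between them is an estimate.

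**Figure D4:**
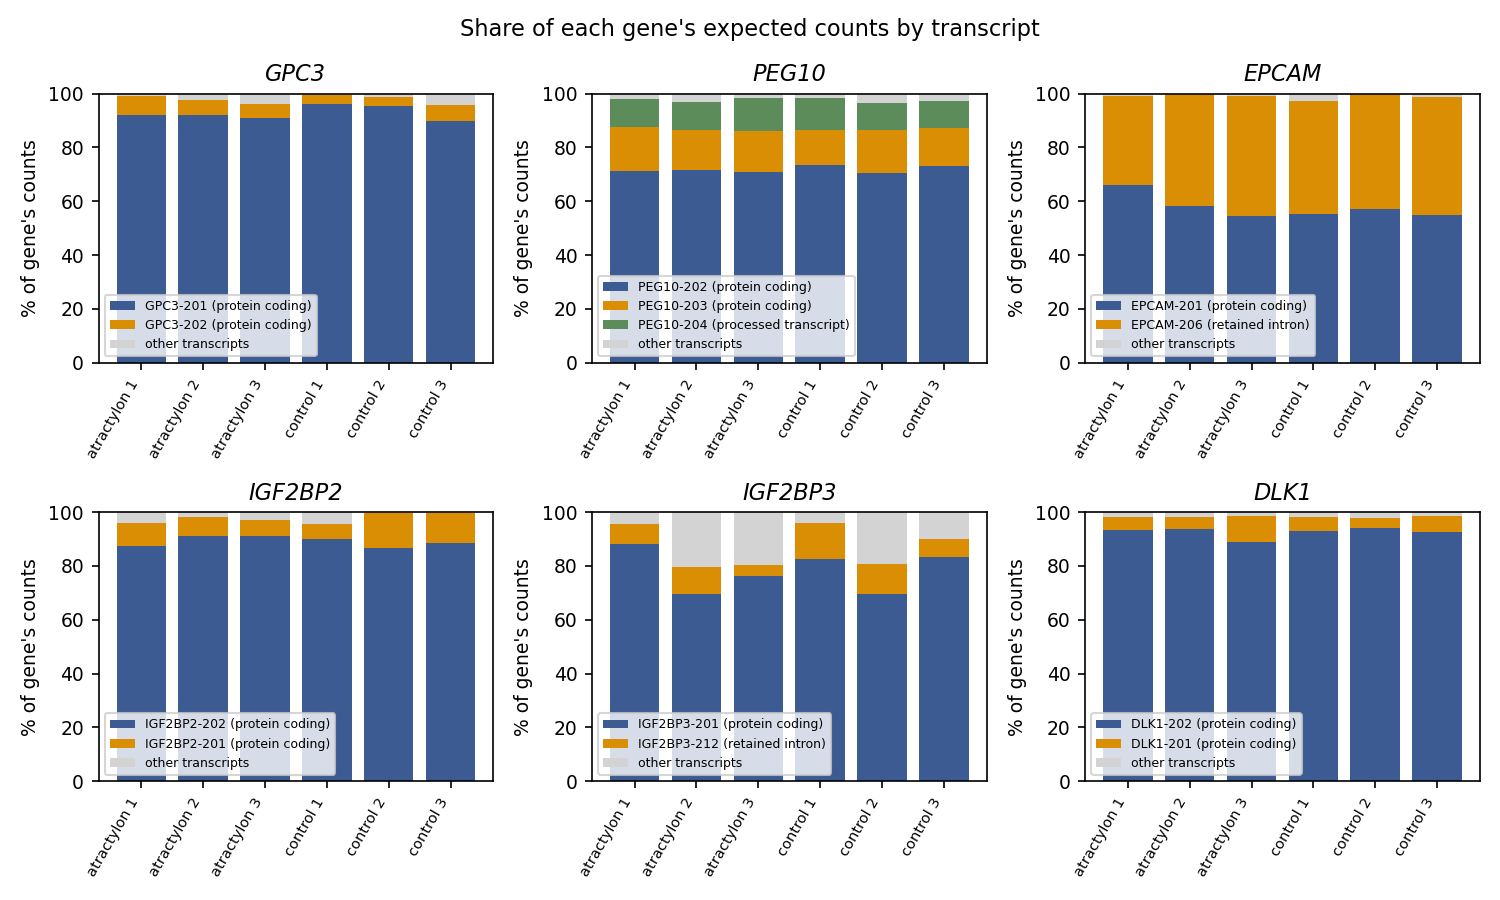
Share of each gene's expected counts (vertical axis, percent) taken by its main transcripts in the 3 atractylon libraries (left) and the 3 control libraries (right). GPC3-201 averages 92.3% and EPCAM-206 41.0% over the 6 libraries, and the grey top of IGF2BP3 varies in size between libraries of both groups.

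Where exons of another gene lie on the opposite strand, reads cannot be told apart unless strand was used in counting, which is not given in the sources used here. That holds for IGF2BP3, which overlaps MALSU1 (39.5 CPM), for PEG10, which overlaps SGCE (15.1 CPM), and for HMGA2, whose antisense neighbour AC090673.1 was at 0. LIN28B and IGF2BP1 overlap antisense genes that were not analysed here.

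The link from let-7 to mRNAs with a seed match can be shown in sequence. let-7 microRNAs pair with mRNAs mainly through bases 2 to 8, the seed, which is the same in all 12 let-7 and miR-98 loci of the RefSeq table (GRCh38.p14). The mature let-7a is printed with its seed in capitals, followed by the first seed match, CTACCTC in capitals, in the 3′ UTR of each of the 5 genes that hold one (sense strand, GENCODE 29 on GRCh38).
let-7a-5p: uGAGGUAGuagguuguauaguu
HMGA2, chr12:65963299-65963320, plus strand: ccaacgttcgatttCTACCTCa
LIN28B, chr6:105078813-105078834, plus strand: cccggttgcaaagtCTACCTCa
IGF2BP1, chr17:49051062-49051083, plus strand: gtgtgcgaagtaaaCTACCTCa
IGF2BP2, chr3:185644220-185644241, minus strand: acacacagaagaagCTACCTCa
IGF2BP3, chr7:23311795-23311816, minus strand: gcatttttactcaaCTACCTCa

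All 5 genes are RNA-binding proteins or HMGA2, and GPC3, DLK1, EPCAM, SPINK1 and PEG10 held no match in the 3′ UTR of their main coding transcript. HMGA2, LIN28B and IGF2BP1 held 4 matches each, and IGF2BP2 and IGF2BP3 held 1 each. Of 11560 tested genes with an annotated 3′ UTR, 8.69% (1004) held at least 1 match, and so did 19.4% of the 3309 genes with a 3′ UTR of at least 1792 bases, the shortest among the 5. Only 10 of the 11560 genes held 4 matches or more. These 10 also included TRIM71, itself a let-7-regulated ubiquitin ligase, with 6 matches, which had 107 ± 39.0 CPM with atractylon and 102 ± 14.7 CPM without (SD, n = 3 each). A match is a stretch of letters, not a site shown to be bound, and for PEG10 the annotated 3′ UTR includes the second reading frame.

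Genes with a seed match were centred where genes without one were. The log2 fold changes of the 5 ran from -0.08 in IGF2BP2 to 0.08 in IGF2BP3, with 1 above 0. Over the 1004 tested genes with a match the median was 0.012 and 54.1% were above 0, and over the 10556 genes without one the median was 0.012 and 53.6% were above 0. These sets were not matched for 3′ UTR length, which had a median of 2517.5 bases with a match and 798 bases without. MicroRNAs were not analysed here, and an effect of let-7 was not tested.

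Other genes of the same pathways were taken from lists, and in each list 0 genes passed the adjusted threshold and 0 reached an unadjusted p under 0.05, where 0% and 1.59% of all genes did. Of 18 genes of let-7 maturation and the LIN28 pathway, 17 were tested and 12 had a log2 fold change above 0, with a median of 0.011. TUT4, a uridylyltransferase that acts on let-7 precursors, had 33.4 ± 6.49 CPM with atractylon and 28.6 ± 3.07 CPM without (SD, n = 3 each). Its log2 fold change was 0.22 ± 0.18 (SE). Of 20 other known let-7 targets, 18 were tested and 12 were above 0, with a median of 0.04. HMGA1, the relative of HMGA2, had 703.8, 891.2 and 828.7 CPM in the atractylon libraries, against 625.1, 755.6 and 730.2 CPM in the control libraries. The groups overlapped, and the log2 fold change was 0.20 ± 0.12 (SE; edgeR adjusted p = 0.9999).

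The partners of the IGF2BP proteins numbered 8, all tested, with 2 above 0 and a median of -0.04. YBX1, a cold-shock protein found in IGF2BP particles, was lower in every atractylon library, with 147.2, 150.5 and 149.8 CPM, against 172.5, 162.1 and 162.0 CPM in the control libraries. The groups did not overlap, as in 3.02% of all genes in that direction, but the difference did not pass (log2 fold change -0.15 ± 0.09, SE; edgeR adjusted p = 0.9999). Of 15 other m6A writers, erasers and readers, 5 were above 0, with a median of -0.03. ALKBH5, an m6A demethylase, had 326 ± 16.6 CPM with atractylon and 323 ± 4.76 CPM without (SD, n = 3 each).

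Around GPC3, 18 of 24 glypicans, syndecans and heparan sulfate enzymes were tested and 10 were above 0, with a median of 0.0072. HS6ST1, a heparan sulfate 6-O-sulfotransferase, had 578.6, 662.6 and 625.7 CPM in the atractylon libraries, against 541.7, 567.8 and 572.5 CPM in the control libraries. These groups did not overlap, as in 2.71% of all genes in that direction, and the difference did not pass (log2 fold change 0.15 ± 0.10, SE; edgeR adjusted p = 0.9999). NOTUM, an enzyme that can release glypicans from the membrane, had 390 ± 39.1 CPM with atractylon and 363 ± 21.3 CPM without (SD, n = 3 each). Of 15 partners and processing enzymes of EPCAM, 11 were tested and 4 were above 0, with a median of -0.01. CD9, a tetraspanin that associates with EPCAM, had 66.2 ± 4.72 CPM with atractylon and 73.8 ± 11.6 CPM without.

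Among 24 other imprinted genes, 13 were tested and 6 were above 0, with a median of -0.0097. IGF2, a fetal growth factor whose mRNA gave the IGF2BP family its name, had 509.0, 574.5 and 606.9 CPM in the atractylon libraries, against 526.5, 588.7 and 785.7 CPM in the control libraries. Control replicate 3 was the highest, as for GPC3 and IGF2BP1, and the groups overlapped. Of 17 other Gag-like genes of retrotransposon origin, 3 were tested, and RTL10 had 66.9 ± 8.10 CPM with atractylon and 74.1 ± 3.88 CPM without (SD, n = 3 each). Of 9 trypsins, other Kazal inhibitors and related genes listed with SPINK1, 2 were tested, SPINK4 and EGFR, and 5 were at 0 in all libraries.

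Of 16 other fetal liver and progenitor markers, 11 were tested and 6 were above 0, with a median of 0.018. PROM1, which encodes the progenitor marker CD133, had 2.65, 1.82 and 2.12 CPM in the atractylon libraries, against 0, 1.51 and 0.866 CPM in the control libraries. The groups did not overlap, as in 2.71% of all genes in that direction. The counts were few and the difference did not pass (log2 fold change 1.40 ± 0.65, SE, with an edgeR adjusted p = 0.9999). KRT19, a biliary and progenitor keratin, had 446 ± 69.2 CPM with atractylon and 446 ± 18.6 CPM without (SD, n = 3 each).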

How the data were processed

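RNA was measured in 6 HepG2 libraries, 3 per group, grouped by sample title. The authors deposited a table of 180253 transcripts holding, per the file headers, expected counts (estimated reads, not always whole) and FPKM values (the same scaled by length and library size) for each library. A SMART-Seq v4 low-input kit served for RNA extraction, per the labels' protocols. Build hg19, HISAT2 2.0.1, cutadapt 1.9.1, bcl2fastq 2.17.1.14 and DESeq2 1.6.3 are named in the submitters' processing notes, with no role or order. Which program and annotation gave the expected counts, and whether strand was used, is not given in the sources used here.

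By identifier, 153245 transcripts (85.0%) matched GENCODE 29 (GRCh38), and the other 27008, with 8.70% to 9.07% of counts, entered neither library sizes nor tests. Coordinates and sequences are those of GENCODE 29 and RefSeq, not of hg19. Of 67 transcripts of the 10 genes, 3 differ in length between the table and GENCODE 29, DLK1-202 among them (1700 against 4722 bases). Expected counts were summed per gene and rounded. Genes with at least 0.5 FPKM in at least 3 of 6 libraries were tested with edgeR 4.0.16 (TMM scaling, glmQLFit, glmQLFTest, 2-sided, Benjamini-Hochberg adjustment over all genes, adjusted p of 0.05). CPM are counts scaled to effective library size. Standard errors come from the fold change and its quasi-likelihood F. limma 3.58.1 used log2(FPKM + 0.5), in which the added 0.5 shrinks the log2 differences of low genes. Summed FPKM can also widen a difference, as for SPINK1. DESeq2 1.42.0 was another alternative. The tests were checked on simulated counts.

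All 10 genes are named, with every transcript of at least 5% of its gene's counts; IGF2BP3-202, GPC3-203 and SPINK1-202 were named after their values were seen. From each list, up to 3 tested genes of smallest p and up to 2 of highest FPKM could be named, and TRIM71 was named for its seed matches. The genes and lists were chosen with earlier results of these data known. The trend removal on GC and length together, and the fit on protein-coding transcripts, were added after seeing the data. To look for pairs, each gene's mean in its group was first subtracted from its log2 CPM, so only deviations within groups were correlated. These deviations correlated at 0.176, 0.223 and 0.0141 between same-numbered libraries across groups, and at -0.227 to 0.0613 between differently numbered ones. The labels do not say that the numbers mark pairs, so replicate numbers were not taken as pairs.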

Additional observations from a re-analysis of the deposited data

How the results depend on the processing

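No setting called any of the 10 genes or their transcripts. Over all genes the count stayed at 0, except for 1 gene, not among the 10, without atractylon replicate 1 (range 0 to 1 over the libraries left out). With the replicate block the counts were 0 genes and 0 transcripts, with 0 of the 10 genes. The labels do not say whether the number pairs the samples. In deviations from the group means, atractylon replicates 1 and 2 correlated best with the control of the same number (0.176 and 0.223). Atractylon replicate 3 did so with control replicate 2 (0.0613). Signs near 0 did change. With limma on log2(FPKM + 0.5), log2(FPKM + 0.1) and log2(FPKM + 1), the log2 difference was 0.02344, 0.0237 and 0.02312 for IGF2BP2, -0.05039, -0.05128 and -0.04933 for IGF2BP3, and -0.04131, -0.04157 and -0.04098 for EPCAM. HMGA2 was at 0.01927 with the GC trend removed, 0.005374 with the replicate block and the GC trend removed, and 0.01133 with GC and length trends removed. The cause of these changes of sign was not tested.

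Leaving out 1 library at a time gave a log2 fold change from -0.1756 to 0.02633 for GPC3, -0.02359 to 0.1109 for DLK1, -0.4367 to 0.1973 for LIN28B, -0.1611 to 0.07555 for IGF2BP1, -0.1745 to 0.06569 for IGF2BP2 and -0.1081 to 0.1785 for IGF2BP3. The range was -0.05392 to 0.1256 for EPCAM, -0.01394 to 0.4503 for SPINK1, -0.4018 to 0.1545 for PEG10 and -0.2916 to 0.1204 for HMGA2. SPINK1 rests on 5 to 11 expected counts per library, and its difference was not detectable at this depth.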
